A study of Mus musculus with 2 samples.

Results

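The genes of cholesterol synthesis, uptake and efflux were described in single-cell RNA libraries of central nervous system (CNS) leukocytes. The 34 genes, of 32285 in the files, were matched by symbol, and all 34 had a row in both matrices. They fall into 4 roles: 18 synthesis enzymes, 5 members of sterol sensing, 5 members of efflux and its control by liver X receptors (LXR), and 6 members that carry, esterify, oxidise or release sterol. All mice were C57BL/6 mice with experimental autoimmune encephalomyelitis (EAE), an autoimmune inflammation of the CNS, induced by immunization with MOG peptide and CFA together with PTX, and cells were taken on day 15. Mononuclear cells were sorted for MHC class II and CD11c and loaded on 10x Genomics 3' droplets. One library came from WT mice and the other from Stat4fl/flCD11cCre mice, in which Cre under the CD11c (Itgax) promoter deletes floxed Stat4, the gene of a transcription factor activated by cytokine receptors. Mice were pooled in each library, and whether the WT mice carry Cre or a floxed allele is not stated. With 1 library per genotype there is no replicate and no test. Intervals are exact 95% intervals of the UMI (unique molecular identifier) counts and cover counting error only, so a difference between the libraries may come from the genotype, from the pooled mice or from the handling of the library, which cannot be told apart. Levels are given as CPM, the UMIs of a gene scaled to the gene UMIs of that cell type and library. Where a pair of values is given with no other label, WT comes first and Stat4fl/flCD11cCre second. A log2 ratio is Stat4fl/flCD11cCre over WT unless stated otherwise, and is followed by its interval. The interval of a level stands in square brackets.

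Cells make cholesterol from acetyl-CoA through mevalonate, farnesyl diphosphate, squalene and lanosterol. The transcription factors SREBP1 and SREBP2, from Srebf1 and Srebf2, are carried by SCAP out of the endoplasmic reticulum when sterol is low and switch on the enzymes, and the INSIG proteins hold SCAP back when sterol is high. Oxysterols and late sterol intermediates activate the LXR receptors, from Nr1h2 and Nr1h3, which switch on the export transporters Abca1 and Abcg1 and the ubiquitin ligase Mylip, which removes lipoprotein receptors. In the inflamed CNS, microglia and macrophages take up cholesterol with myelin and must store or export it, because the sterol ring is not broken down in the tissue.

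The start regions of 7 members are shown because these genes lead the differences between cell types or libraries that follow. RefSeq start windows, with 250 bases before to 50 bases after each gene's start, were available for 28 of the 34 members and for 27025 genes in all (GRCm38.p6). The motifs below were searched on both strands: CCAAT (the NF-Y box), CACGTG (the E-box) and TCACNCCAC (a form of the sterol response element). CCAAT was found in 14 of 15 synthesis enzymes with a window, against 41.1% of all genes, and in 1 of 4 efflux members. CACGTG was found in 3 of 15 synthesis enzymes and in 8.09% of all genes. TCACNCCAC was found in 1 of 15 synthesis enzymes, Hmgcs1, and in 1.44% of all genes. CCAAT was also found in 4 of 5 sensing members and 3 of 4 handling members. The 150 bases before the start of each gene are printed on the gene's own strand, with the motif matches in capitals. ATTGG is CCAAT read on the other strand.

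Hmgcs1, chr13:119690201-119690350, plus strand: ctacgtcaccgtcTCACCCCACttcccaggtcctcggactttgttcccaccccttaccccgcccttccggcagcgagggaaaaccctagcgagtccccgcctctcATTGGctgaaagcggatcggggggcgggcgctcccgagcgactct
Idi1, chr13:8885456-8885605, plus strand: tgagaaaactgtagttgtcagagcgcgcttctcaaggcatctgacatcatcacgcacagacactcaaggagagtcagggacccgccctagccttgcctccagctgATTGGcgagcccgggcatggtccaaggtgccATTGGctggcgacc
Cyp51, chr5:4104698-4104847, minus strand: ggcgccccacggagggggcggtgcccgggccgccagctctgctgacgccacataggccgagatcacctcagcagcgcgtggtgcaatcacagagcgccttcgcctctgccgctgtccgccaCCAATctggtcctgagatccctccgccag
Msmo1, chr8:64733579-64733728, minus strand: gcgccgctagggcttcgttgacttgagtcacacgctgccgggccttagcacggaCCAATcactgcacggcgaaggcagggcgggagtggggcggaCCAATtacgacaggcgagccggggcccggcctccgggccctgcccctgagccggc
Insig1, chr5:28071262-28071411, plus strand: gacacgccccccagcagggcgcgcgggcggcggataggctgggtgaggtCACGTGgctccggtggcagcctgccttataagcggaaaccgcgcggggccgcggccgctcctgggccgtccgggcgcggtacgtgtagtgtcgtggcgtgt
Abca1, chr4:53159896-53160045, minus strand: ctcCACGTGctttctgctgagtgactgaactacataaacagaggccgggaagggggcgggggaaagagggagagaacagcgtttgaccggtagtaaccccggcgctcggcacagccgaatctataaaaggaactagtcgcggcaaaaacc
Mylip, chr13:45389592-45389741, plus strand: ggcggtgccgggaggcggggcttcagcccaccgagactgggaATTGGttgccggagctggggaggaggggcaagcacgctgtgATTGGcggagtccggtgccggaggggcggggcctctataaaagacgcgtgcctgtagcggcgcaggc

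Hmgcs1 is the printed window that holds TCACNCCAC, Insig1 and Abca1 hold CACGTG, and Hmgcs1, Idi1, Cyp51, Msmo1 and Mylip hold CCAAT. No match overlaps another in these windows. A match is a description of letters, not of binding.

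After filtering, 13298 WT and 12305 Stat4fl/flCD11cCre cells were kept, with a median of 6440.5 and 6878 UMIs. Marker gates assigned 71.9% and 81.8% of them to cell types, and 13 types are described here. The sort was for MHC class II and CD11c, yet the libraries hold T cells, NK cells, neutrophils, monocytes and choroid plexus epithelium. S100a8, a marker of the neutrophil gate, was at 94039.8 and 105008 CPM in neutrophils against 85.8 and 73.1 CPM in T cells. Ttr, the transthyretin gene and a marker of the choroid plexus gate, was at 256819 and 299431 CPM in choroid plexus epithelium. Cells were gated on these same genes, so their levels do not check the gates. The antibody tag for CD317 had its highest median in plasmacytoid dendritic cells (DCs), at 188.5 and 214 UMIs per cell. The XCR1 tag, which marks cDC1, had medians of 31.5 and 73 in cDC1 and, higher, 51 and 92 in inflammatory macrophages. Stat4 was at 125 and 82.9 CPM in cDC2, 16.9 and 23.6 CPM in cDC1 and 9.53 and 6.86 CPM in microglia, and since 3' reads need not lie in the deleted part this checks nothing about the deletion. The libraries share 43 barcodes, 42 of them among the kept cells. Fdps and Tm7sf2 overlap another protein-coding gene on the same strand, so their counts are uncertain. Mvd, Fdft1, Cyp51, Srebf1 and Npc1 overlap one on the other strand, and the sources used here do not state a strand setting.

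Synthesis enzymes were highest in dendritic cells. Their summed level was 874 [819 to 932] and 1033 [978 to 1089] CPM in plasmacytoid DCs, 711 [663 to 760.2] and 672 [620.1 to 726] CPM in cDC1 and 669.9 [604 to 741] and 815 [765 to 867] CPM in cDC2. Granulocyte-monocyte progenitors, at 457 and 519 CPM, came next. These DC sums do not overlap those of any other type in either library, and plasmacytoid DCs stood above both conventional DCs. The intervals of cDC1 and cDC2 overlap in WT, and cDC2 lies above cDC1 in Stat4fl/flCD11cCre. At the other end, microglia stood at 254 and 256 CPM, nonclassical monocytes at 296 and 211 CPM, NK cells at 242 and 279 CPM, neutrophils at 216 and 258 CPM and B cells at 199 and 227 CPM. These low types have no fixed order over both libraries. Choroid plexus epithelium (451 and 404 CPM), classical monocytes (380.2 and 437 CPM), T cells (335 and 369 CPM) and inflammatory macrophages (330.3 and 331 CPM) lay between.

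**Figure D1:**
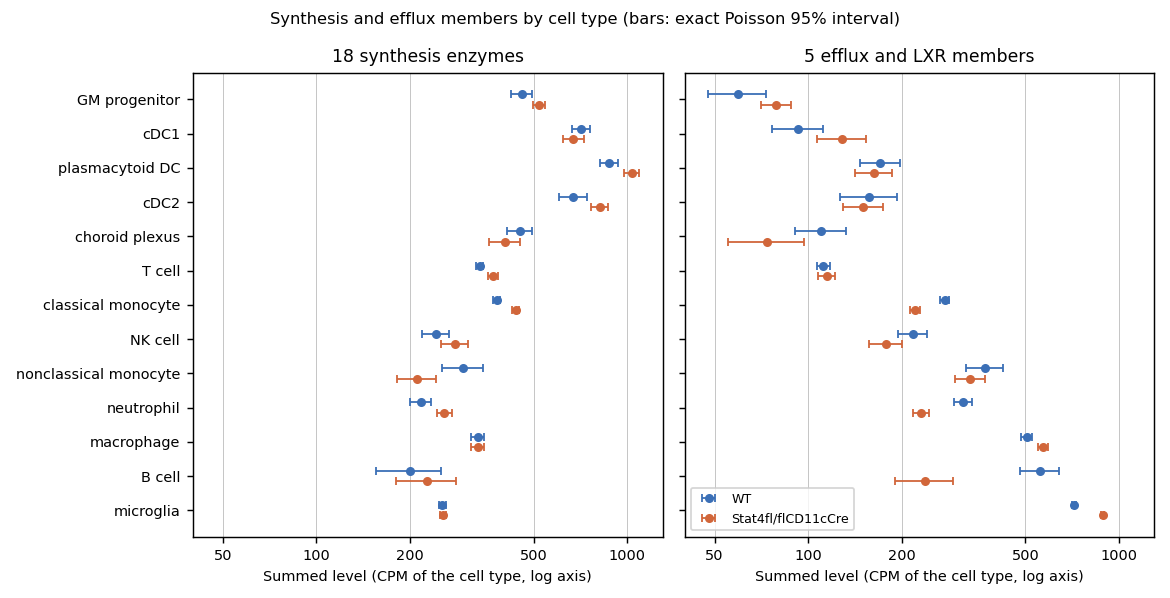
Summed level in CPM (log axis) of the 18 synthesis enzymes and the 5 efflux and LXR members in each cell type and library, with 95% counting intervals. Plasmacytoid DCs, cDC1 and cDC2 have the highest synthesis sums, and microglia have the highest efflux sums, 718 and 886 CPM.

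In plasmacytoid DCs, which release type I interferon, 17 of the 18 enzymes were at least 1.5-fold above the mean of the other types in both libraries. Of all 15607 genes compared in this way, 11.8% were that far above in this type. Ebp, the sterol isomerase, was the exception, with 92.8 and 108 CPM and its highest level in granulocyte-monocyte progenitors (119 and 121 CPM). For 11 of 18 enzymes plasmacytoid DCs had the highest level of the 13 types in both libraries. No share of all genes is given for this second rule, so the count alone does not show how unusual it is. The enzymes stood out at every stage of the pathway. Early enzymes included Hmgcs1, which condenses acetyl-CoA with acetoacetyl-CoA (57.2 [43.7 to 73.4] and 75.8 [61.7 to 92.2] CPM). Another was Idi1, the isopentenyl diphosphate isomerase (70.3 [55.3 to 88.1] and 105 [88.6 to 124] CPM, 3.52- and 4.53-fold the mean of the other types). Fdps, which makes farnesyl diphosphate, followed the same pattern (199.6 [174 to 228] and 267 [239.7 to 296] CPM, 2.66- and 3.67-fold). Past the branch point, Fdft1, the squalene synthase, was at 42.2 and 25 CPM and Sqle, the squalene epoxidase, at 19.7 and 28.8 CPM. Among the lanosterol-to-cholesterol steps, Msmo1, a methylsterol oxidase, was at 76.8 and 107 CPM (2.88- and 3.19-fold), Dhcr7, the reductase of the last step, at 29.99 and 30.3 CPM and Cyp51, the lanosterol demethylase, at 41.2 and 63.7 CPM. Lss, the lanosterol synthase, gave few counts even here, at 5.62 and 5.31 CPM.

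Fewer enzymes stood as far above the mean of the other types in the conventional DCs. In cDC1, 6 of 18 did (Hmgcs1, Pmvk, Fdps, Cyp51, Msmo1 and Hsd17b7), beside 5.55% of all genes. In cDC2, 9 of 18 did (Hmgcs1, Mvk, Pmvk, Mvd, Idi1, Sqle, Cyp51, Tm7sf2 and Msmo1), beside 4.88% of all genes. Fdps reached 249.5 [222 to 279.6] and 192 [165 to 222] CPM in cDC1 and 103 [77.8 to 133] and 149 [128 to 172] CPM in cDC2. Pmvk, the phosphomevalonate kinase, was highest in cDC2 (131 and 130.5 CPM) and next in cDC1 (97.8 and 80.3 CPM) in both libraries. In choroid plexus epithelium, which makes cerebrospinal fluid, Hmgcs1, Mvk, Fdft1 and Sqle stood as far above, 4 of 18 beside 15.7% of all genes, while Ebp was lowest of all types there, at 30.01 and 22.3 CPM.

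The low synthesis sums of microglia and neutrophils were spread over many enzymes. In microglia 11 of 18 enzymes were at least 1.5-fold below the mean of the other types in both libraries, beside 22.2% of all genes. Idi1 was at 6.29 [5.33 to 7.36] and 6.24 [5.50 to 7.06] CPM and Fdps at 22.2 [20.4 to 24.1] and 19.9 [18.5 to 21.3] CPM. Ebp, at 78.4 and 84.6 CPM, was not among the 11. In neutrophils 14 of 18 enzymes were that far below, where 52.5% of all genes were, so most genes of this type are low by this measure. In T cells 6 of 18 were (Hmgcs1, Mvk, Pmvk, Fdps, Tm7sf2 and Msmo1), beside 28.6% of all genes.

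**Figure D2:**
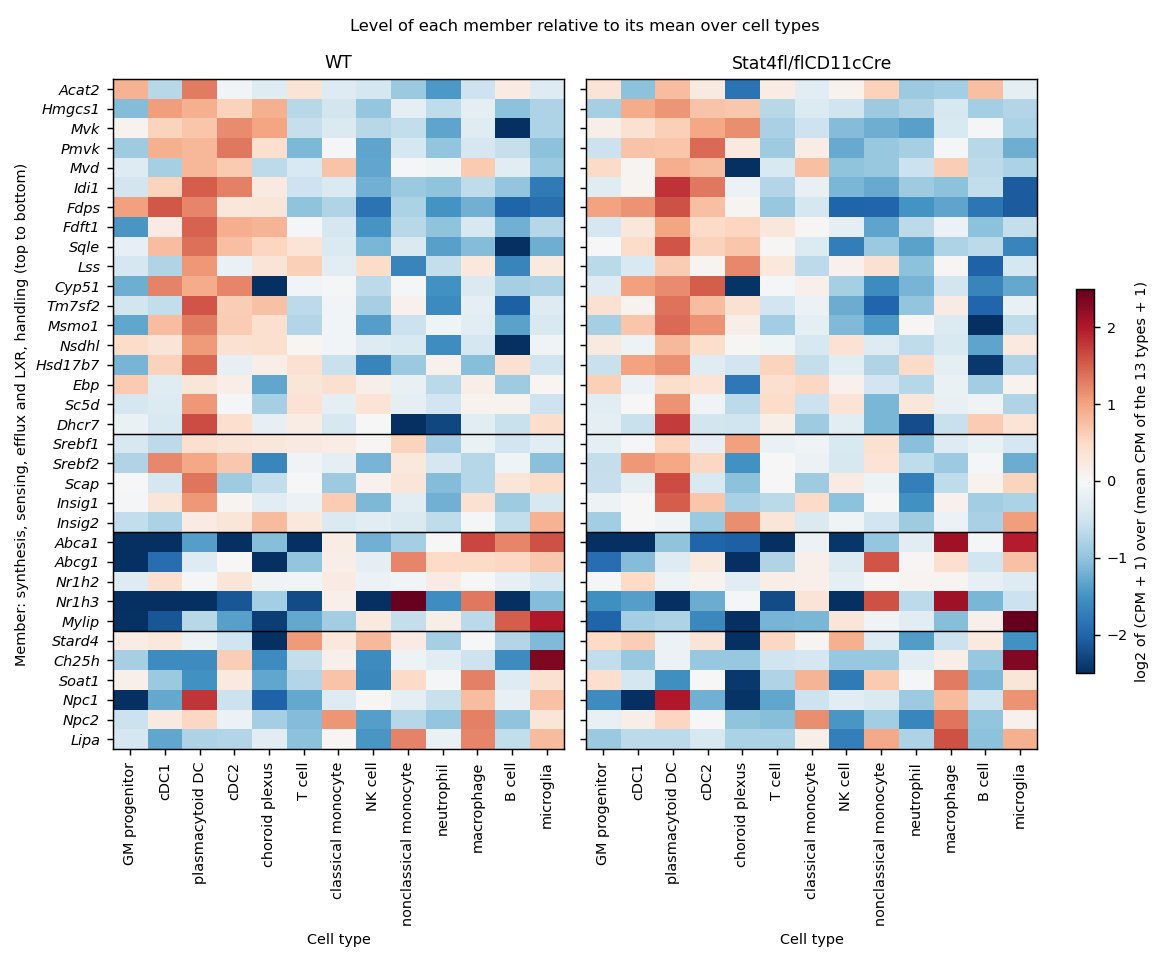
Level of each of the 34 members (rows, grouped by role) in each cell type (columns) in the WT and Stat4fl/flCD11cCre libraries, as the log2 ratio to that member's mean over the cell types, with 1 CPM added to both. In both libraries the plasmacytoid DC columns lie above 0 for all 18 synthesis enzymes, and the microglia columns for Abca1, Abcg1 and Mylip.

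The sensing members followed the dendritic cells in part. Srebf2, the SREBP of the cholesterol enzymes, was highest in cDC1 (123 [104 to 145] and 114 [93 to 137] CPM), then in plasmacytoid DCs (104 and 105 CPM) and cDC2 (84.8 and 76.3 CPM). It was low in microglia (25.2 and 22.1 CPM). Scap, the SREBP escort, and Insig1, itself an SREBP target, were highest in plasmacytoid DCs, at 36.5 and 49.3 CPM and 36.5 and 59.9 CPM. The next types for Insig1 were classical monocytes in WT (26.6 CPM) and cDC2 in Stat4fl/flCD11cCre (33.6 CPM). Insig2, which is not under SREBP control in most cells, had another pattern, with 41.9 and 51.6 CPM in microglia and 39.7 and 55.7 CPM in choroid plexus epithelium. Srebf1, which is also an LXR target, ranged up to 19 CPM in WT, in nonclassical monocytes, and up to 32.1 CPM in Stat4fl/flCD11cCre, in choroid plexus epithelium.

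As a sum, efflux and LXR members were highest in microglia, although only Mylip of them was itself highest there. Their summed level was 718 [708 to 729] and 886 [876 to 895] CPM in microglia and 504 [484 to 525] and 569 [548 to 589.6] CPM in inflammatory macrophages. In B cells, with few cells, it was 558 [482 to 642] and 238 [191 to 293] CPM. The 8 microglia markers summed to 699 and 159 CPM in these B cells, and their part in the efflux sum was not tested. Nonclassical monocytes (370.1 and 332 CPM), neutrophils (315 and 230.3 CPM) and classical monocytes (275 and 220.3 CPM) followed. cDC1 (92.7 and 129 CPM) and progenitors (59.4 and 78.9 CPM) were lowest in WT, and progenitors and choroid plexus epithelium (110.3 and 73.9 CPM) in Stat4fl/flCD11cCre. In microglia Abca1, Abcg1 and Mylip, 3 of the 5 members, were at least 1.5-fold above the mean of the other types, beside 34.7% of all genes, a high background. Above it there were also Insig2, Ch25h, Npc1 and Lipa.

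Abca1, which loads cholesterol onto lipid-poor apolipoproteins, was highest in inflammatory macrophages (302 [286 to 318] and 389 [372 to 407] CPM) and next in microglia (287 [280.3 to 294] and 351 [345 to 357] CPM). It was lowest in progenitors in WT (5.94 CPM) and in cDC1 in Stat4fl/flCD11cCre (8.57 CPM). Mylip was highest in microglia (297 [289.9 to 303] and 411 [405 to 418] CPM) and at 45.8 and 34.1 CPM in macrophages, which share with microglia a high Abca1 but not a high Mylip. That the efflux sum was higher in microglia than in macrophages thus rests on Mylip, a ligase and not an exporter. Abcg1, which exports sterol to mature lipoprotein particles, was highest in nonclassical monocytes (147 [117 to 182] and 159 [135 to 187] CPM) and next in microglia (100 and 88.8 CPM). Of the LXR receptors, Nr1h3 was found mainly in nonclassical monocytes (84.7 [62.7 to 112] and 23.5 [14.7 to 35.6] CPM) and macrophages (29.7 [25 to 35] and 34.5 [29.6 to 39.99] CPM), and was at 4.78 and 4.57 CPM in microglia. Nr1h2, the widely used receptor, varied less, between 29.97 and 30.04 CPM in microglia, its lowest type, and 53.1 and 53.6 CPM in cDC1, its highest.

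Macrophages had 2 of 5 efflux members (Abca1 and Nr1h3) at least 1.5-fold above the mean of the other types, beside 7.71% of all genes. Nonclassical monocytes had 2 of 5 (Abcg1 and Nr1h3), beside 9.73%. Progenitors had 4 of 5 that far below (all but Nr1h2), beside 36.3%, and T cells the same 4, beside 28.6%.

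The handling members did not share 1 highest type. Npc2, the soluble lysosomal sterol carrier, was highest in macrophages (1939 and 1842 CPM) and classical monocytes (1729.6 and 1638 CPM). Its membrane partner Npc1 was highest in plasmacytoid DCs (163 [139.7 to 189] and 174 [152 to 198] CPM), with 80.3 and 74.1 CPM in macrophages and 77.8 and 94 CPM in microglia. Soat1, which stores cholesterol as ester, was highest in macrophages (254 [240.0 to 269] and 246 [233 to 260.4] CPM) and at 138 and 124 CPM in microglia. Lipa, the lysosomal acid lipase that frees cholesterol from esters, was at 126 and 170.3 CPM in macrophages and 128 and 109 CPM in nonclassical monocytes. Macrophages had 4 of 6 handling members (Soat1, Npc1, Npc2 and Lipa) above the 1.5-fold mark, beside 7.71% of all genes. Ch25h, the enzyme of an oxysterol that activates LXR and holds back SREBP, was found in microglia (13.9 [12.5 to 15.5] and 8.60 [7.73 to 9.55] CPM), and the next type had 3.53 CPM in WT (cDC2) and 1.18 CPM in Stat4fl/flCD11cCre (macrophages). Stard4, a soluble sterol carrier, had its highest level in T cells in WT (22.8 CPM) and in NK cells in Stat4fl/flCD11cCre (25.9 CPM).

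The log2 ratio of summed synthesis over summed efflux UMIs sets the types in order within each library. Because 3' counts are not comparable between genes, the ratio is read only between types and libraries. It was lowest in microglia (-1.50 and -1.79), with B cells close to them in WT only (-1.48 and -0.067). In B cells the summed level of the 8 microglia markers was 699 and 159 CPM and that of the 8 neutrophil markers 373 and 91.8 CPM, and their part in the B cell values was not tested. Inflammatory macrophages (-0.61 and -0.78) and nonclassical monocytes (-0.32 and -0.66) followed. The ratio was -0.54 and 0.17 in neutrophils, 0.16 and 0.65 in NK cells, 0.47 and 0.99 in classical monocytes and 1.58 and 1.68 in T cells. It was highest in plasmacytoid DCs (2.36 and 2.67), cDC1 (2.94 and 2.39), cDC2 (2.09 and 2.44), choroid plexus epithelium (2.03 and 2.45) and progenitors (2.94 and 2.72). Without Ebp and Abca1, the enzyme and the efflux member with the most UMIs over all types together, the ratio was 0.28 and 0.54 in macrophages and -1.29 and -1.64 in microglia. Macrophages then lay above nonclassical monocytes (-0.47 and -0.90), neutrophils (-0.38 and 0.42) and NK cells (-0.15 and 0.25). Their place near microglia in the order therefore rests on these genes.

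The libraries of the 2 genotypes were then compared type by type, in the 12 types with at least 50 cells in each. B cells were left out, with 88 WT and 37 Stat4fl/flCD11cCre cells. Synthesis sums mostly stood level or higher in the Stat4fl/flCD11cCre library, while efflux sums went both ways. The summed synthesis level was higher in the Stat4fl/flCD11cCre library in 6 types, with intervals above 0: cDC2 (log2 ratio 0.28, 0.11 to 0.46), neutrophils (0.25, 0.11 to 0.40), plasmacytoid DCs (0.24, 0.12 to 0.36), classical monocytes (0.20, 0.15 to 0.26), progenitors (0.18, 0.058 to 0.31) and T cells (0.14, 0.075 to 0.20). It was lower in nonclassical monocytes (-0.49, -0.79 to -0.19). In microglia (0.0074, -0.038 to 0.053), macrophages (0.0025, -0.10 to 0.10), cDC1 (-0.081, -0.23 to 0.070), NK cells (0.20, -0.0016 to 0.41) and choroid plexus epithelium (-0.16, -0.38 to 0.056) the interval included 0.

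The efflux sum was higher in microglia (0.30, 0.28 to 0.33), macrophages (0.17, 0.095 to 0.25), cDC1 (0.47, 0.086 to 0.86) and progenitors (0.41, 0.066 to 0.76). It was lower in classical monocytes (-0.32, -0.39 to -0.25), neutrophils (-0.45, -0.58 to -0.32), NK cells (-0.29, -0.53 to -0.052) and choroid plexus epithelium (-0.58, -1.08 to -0.10). In nonclassical monocytes (-0.15, -0.41 to 0.10), cDC2 (-0.067, -0.44 to 0.32), plasmacytoid DCs (-0.072, -0.36 to 0.22) and T cells (0.037, -0.079 to 0.15) the interval included 0. The largest in size, -0.58 for efflux in choroid plexus epithelium, rests on 135 and 83 cells. It was 0.38 after cells were thinned to 2500 UMIs, which leaves out cells with fewer. Thinning also left the neutrophil synthesis ratio at 0.11 and the NK cell efflux ratio at -0.019.

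**Figure D3:**
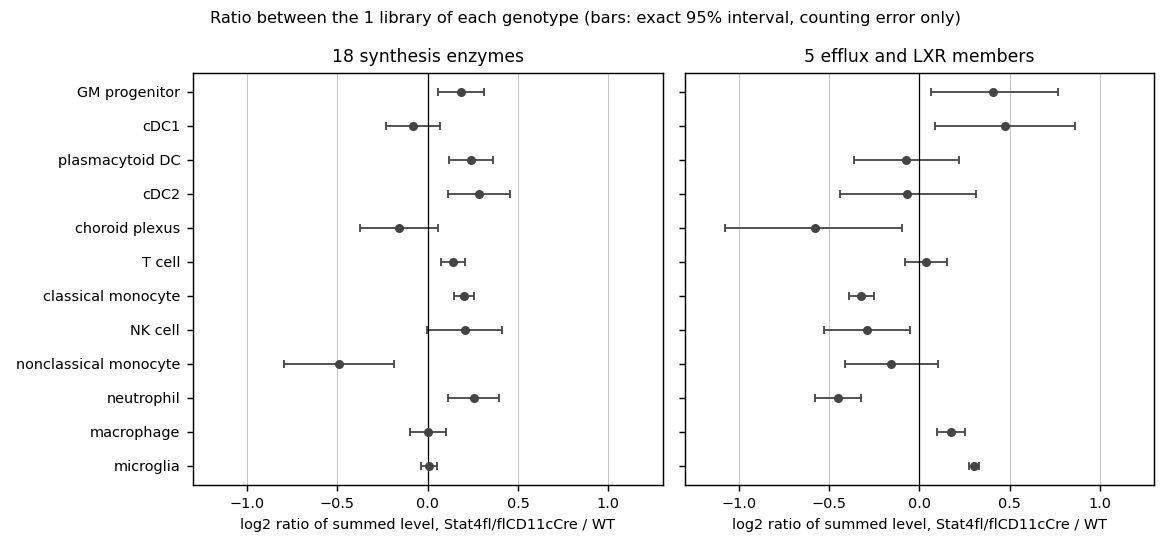
Log2 ratio of the summed level, Stat4fl/flCD11cCre over WT, of synthesis enzymes and of efflux and LXR members in 12 cell types, with 95% counting intervals. In classical monocytes synthesis lies at 0.20 and efflux at -0.32, and in microglia synthesis lies at 0.0074 and efflux at 0.30.

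Cyp51 and Msmo1, which act early in the steps from lanosterol to cholesterol, were the enzymes with the most intervals above 0. For Cyp51 this held in 6 of the 9 types where it had at least 50 UMIs in both libraries together, and for Msmo1 in 5 of 10, with no interval below 0 for either. Of 4878 genes with as many UMIs in 9 or more types, 1.95% had at least 5 intervals above 0 and none below. Npc2 went the other way, with intervals below 0 in 9 of 12 types and above 0 in progenitors. Of the same genes, 1.58% had 9 or more intervals below 0. Other genes of macrophages and microglia were lower in the same library in some of these types: Apoe had a log2 ratio of -1.03, -1.09 to -0.98 in neutrophils, -1.09, -1.16 to -1.02 in T cells and -3.54, -3.95 to -3.16 in NK cells, and the scavenger receptor gene Msr1 -1.96, -2.85 to -1.12 and the receptor gene Lrp1 -0.87, -1.25 to -0.49 in neutrophils. Their part in the Npc2 values was not tested. Abca1 was above 0 in microglia and macrophages and below 0 in classical monocytes, neutrophils, NK cells and choroid plexus epithelium. At least 2 intervals above 0 and 4 below were found for 2.79% of the genes.

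**Figure D4:**
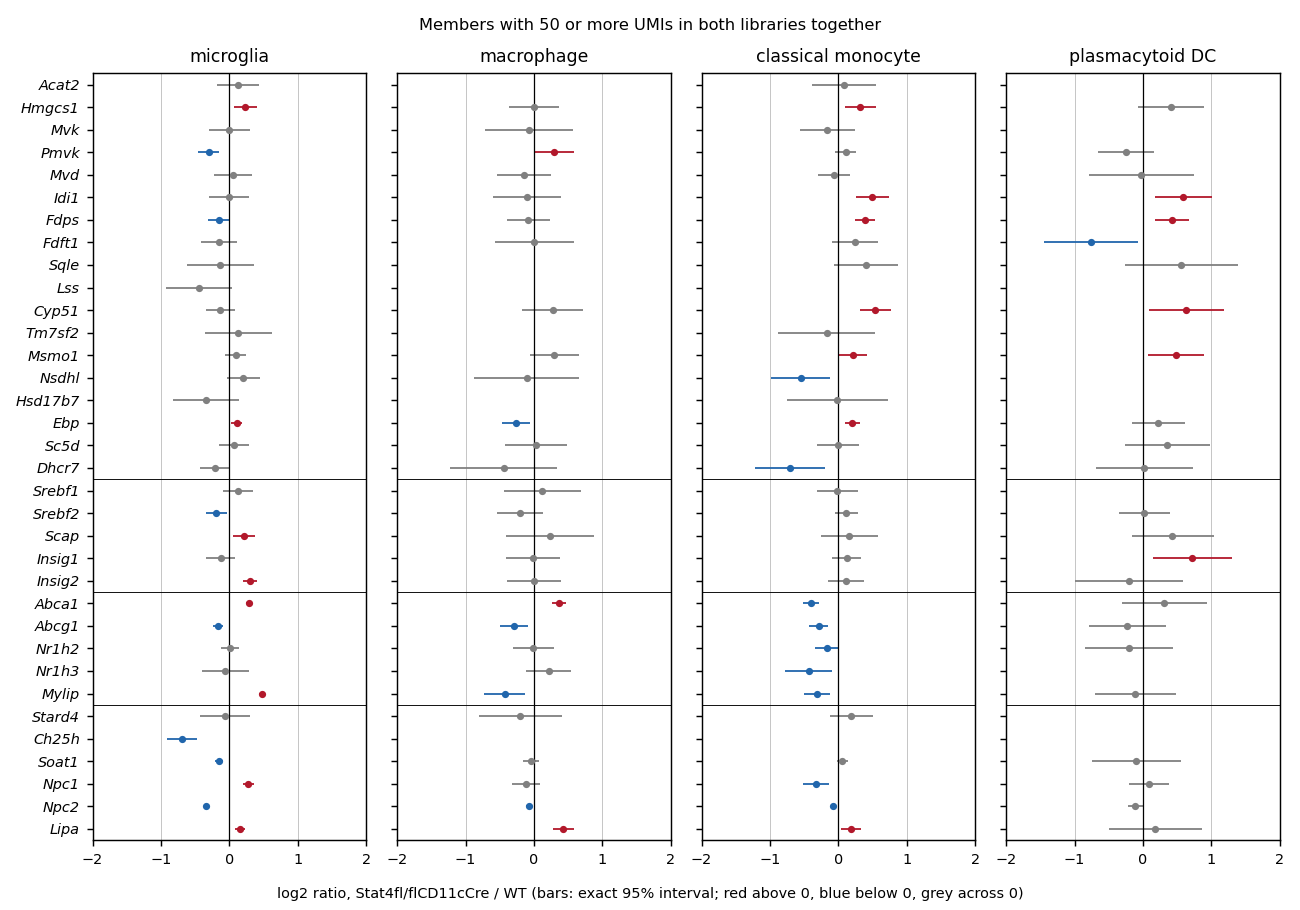
Log2 ratio, Stat4fl/flCD11cCre over WT, of each member with at least 50 UMIs in both libraries together, in microglia, inflammatory macrophages, classical monocytes and plasmacytoid DCs. Points are ratios and bars 95% counting intervals, red above 0, blue below 0 and grey across 0; all 5 efflux members are below 0 in classical monocytes, and Abca1 is above 0 in microglia and macrophages.

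Microglia, the resident macrophages of the CNS, gave the most counts (3431 and 5391 cells, median 5046 and 5353 UMIs), and all 34 members were measured. None was at least 1.5-fold higher in Stat4fl/flCD11cCre, beside 6.32% of 13599 genes, and 1, Ch25h, was as much lower, beside 9.3%. The median log2 ratio of the members was -0.0051, and that of all genes 0.079. The efflux members differed among themselves. Mylip was at 297 [289.9 to 303] and 411 [405 to 418] CPM (log2 ratio 0.47, 0.43 to 0.51), and Abca1 at 287 [280.3 to 294] and 351 [345 to 357] CPM (0.29, 0.25 to 0.33), both higher in Stat4fl/flCD11cCre. Abcg1, an LXR target like them, was at 100 and 88.8 CPM (-0.17, -0.25 to -0.10). Among the handling members, the pair of lysosomal carriers parted: Npc2 was at 999.4 [987 to 1012] and 787 [778 to 795] CPM (-0.35, -0.37 to -0.32) and Npc1 at 77.8 [74.4 to 81.4] and 94 [91.1 to 97] CPM (0.27, 0.19 to 0.35). Ch25h was at 13.9 [12.5 to 15.5] and 8.60 [7.73 to 9.55] CPM (-0.70, -0.92 to -0.48). All of these intervals exclude 0, but only the Ch25h ratio exceeds 1.5-fold. Insig2, which holds SCAP back, was at 41.9 and 51.6 CPM (0.30, 0.19 to 0.41) and Pmvk at 25 and 20.3 CPM (-0.30, -0.45 to -0.15). Over the 18 enzymes, 2 intervals lay above 0, beside 35.7% of all genes, 2 below, beside 22.1%, and 14 included it, with ratios from -0.45 to 0.23.

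The make-up of the gated microglia also differed between the libraries. P2ry12, a gene of resting microglia and itself a marker of the microglia gate, was at 935 and 1735 CPM. Cells with no UMI of H2-Aa, H2-Ab1 and H2-Eb1, the MHC class II genes, numbered 429 of 3431 in WT and 3211 of 5391 in Stat4fl/flCD11cCre, although cells were sorted for MHC class II. Among microglia thinned to 2500 UMIs they numbered 504 of 3160 and 3590 of 5196.

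Microglia were therefore split by MHC class II RNA, into cells with 3 or more UMIs (2603 and 1241) and cells with 0. The first were deeper, with a median of 5787 against 3648 UMIs in WT and 10556 against 4778 in Stat4fl/flCD11cCre. The split was therefore also made on the MHC class II UMIs of cells thinned to 2500 UMIs. The full counts of these cells were summed, so this did not match depth between the classes. The medians were then 5977 against 4304.5 UMIs in WT and 10876 against 5086.5 in Stat4fl/flCD11cCre. In MHC class II cells the efflux sum was lower than in cells without (log2 ratio -0.44, -0.51 to -0.36 for the WT cells and -0.34, -0.37 to -0.30 for the Stat4fl/flCD11cCre cells; -0.29 and -0.41 with the split made in thinned cells). Handling members were higher (0.55, 0.48 to 0.62 and 0.59, 0.56 to 0.62). For synthesis the WT ratio, 0.11, -0.032 to 0.26, includes 0, and the Stat4fl/flCD11cCre ratio was 0.25, 0.19 to 0.31. With the split made in thinned cells they were 0.17, 0.049 to 0.30 and 0.28, 0.22 to 0.34, both above 0. There were 5 members at least 1.5-fold higher in MHC class II cells in both libraries, Pmvk, Insig1, Stard4, Nr1h3 and Npc2, beside 8.55% of 11711 genes. None was as much lower, beside 5.82%. In WT the intervals of Insig1 (0.66, -0.11 to 1.55) and Stard4 (1.36, -0.23 to 3.66) included 0. With the split made in thinned cells they did not (0.89, 0.21 to 1.64 and 1.61, 0.20 to 3.52). Npc2 was at 1051 against 661 CPM in WT and 1037 against 602 CPM in Stat4fl/flCD11cCre. Nr1h3 was at 5.51 CPM in WT cells with MHC class II, with no UMI in those without, which allows up to 1.76 CPM, and at 9.38 against 1.25 CPM in Stat4fl/flCD11cCre.

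Comparing the genotypes within each class of microglia gave smaller efflux differences. The efflux log2 ratio was 0.16, 0.12 to 0.19 in cells with MHC class II RNA and 0.054, -0.020 to 0.13 in cells without, against 0.30 over all microglia. With the split made in thinned cells it was 0.077 and 0.20. Single members depended on how the split was made. The Mylip ratio was 0.19, 0.13 to 0.24 with MHC class II RNA and 0.23, 0.12 to 0.34 without, and 0.057, -0.0034 to 0.12 and 0.40, 0.30 to 0.50 with the thinned split. For Abca1 it was 0.23, 0.18 to 0.28 with and -0.010, -0.13 to 0.11 without, and 0.18, 0.12 to 0.24 and 0.11, 0.0055 to 0.21 with the thinned split. For Npc2 it was -0.019, -0.048 to 0.0092 with and -0.13, -0.22 to -0.044 without, and 0.036, 0.0053 to 0.067 and -0.15, -0.22 to -0.076 with the thinned split. Ch25h differed in cells without, at 11.8 and 2.51 CPM (-2.23, -3.02 to -1.39), and stood at 14.6 and 17 CPM in cells with it (0.22, -0.019 to 0.45). The difference between the classes was not tested.

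**Figure D5:**
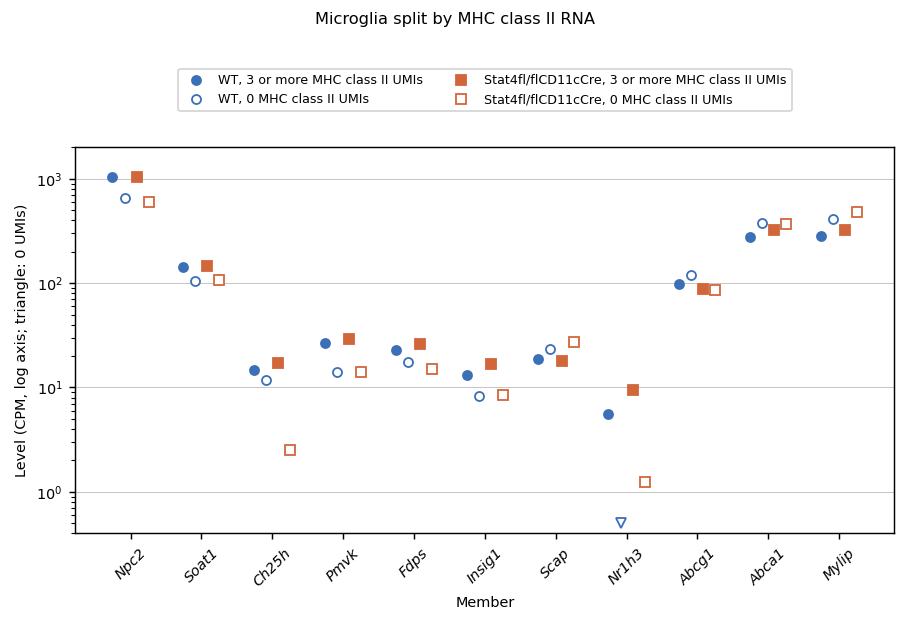
Level in CPM (log axis) of 11 members in microglia with 3 or more MHC class II UMIs (filled) and with 0 (open), in WT (circles) and Stat4fl/flCD11cCre (squares); the triangle marks 0 UMIs. Npc2 is higher and Mylip lower in cells with MHC class II RNA in both libraries.

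In inflammatory macrophages (456 and 365 cells) 28 members were measured, and none was 1.5-fold higher, beside 2.24% of genes, or lower, beside 3.22%. Lipa was at 126 [116 to 137] and 170.3 [159 to 182] CPM (log2 ratio 0.43, 0.28 to 0.58) and Abca1 at 302 [286 to 318] and 389 [372 to 407] CPM (0.37, 0.27 to 0.47), both higher in Stat4fl/flCD11cCre. The other exporter, Abcg1 (-0.29, -0.50 to -0.085), and Mylip (-0.43, -0.72 to -0.13) were lower, so the 3 LXR targets pointed in different directions. Of the enzymes, Pmvk (0.30, 0.011 to 0.58) was higher and Ebp (-0.26, -0.47 to -0.052) lower, with 11 of 13 intervals across 0. Of all genes in macrophages, 7.51% had an interval above 0 and 10.5% below. Npc2 was at 1939 and 1842 CPM (-0.074, -0.12 to -0.033).

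Classical monocytes (1671 and 1274 cells) had higher synthesis and lower efflux members in the Stat4fl/flCD11cCre library. All 5 efflux and LXR members had intervals below 0, with ratios from -0.44 to -0.17, while 6 of 17 enzymes had intervals above 0 and 2 below. Of all genes in this type, 16.1% had an interval above 0 and 20.6% below. Markers of some other cell types were lower in the same library: the 8 microglia markers, each of them lower, summed to 216 and 116 CPM, the 8 T cell markers, each lower too, to 65.6 and 17.7 CPM and the 8 choroid plexus markers to 112 and 11.9 CPM. Their part in the efflux and enzyme values was not tested. Abca1 was at 107 [101 to 112] and 80.5 [75.7 to 85.5] CPM (log2 ratio -0.40, -0.52 to -0.29), Abcg1 at 70.4 and 57.7 CPM (-0.29, -0.43 to -0.15) and Mylip at 39.8 and 32 CPM (-0.31, -0.50 to -0.13). On the synthesis side Cyp51 was at 20.7 [18.4 to 23.3] and 30.1 [27.2 to 33.2] CPM (0.54, 0.31 to 0.76), Idi1 at 18.4 and 25.8 CPM (0.49, 0.25 to 0.73) and Fdps at 49.5 and 64.8 CPM (0.39, 0.24 to 0.53). The reductase Dhcr7 was against this trend, at 6.57 and 4.03 CPM (-0.70, -1.22 to -0.20), and the lysosomal Npc1 was at 37.1 and 29.6 CPM (-0.33, -0.52 to -0.13).

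These are small differences: Dhcr7 alone of 32 members was 1.5-fold lower, beside 7.15% of genes, and none was as much higher, beside 2.45%. In nonclassical monocytes (94 and 151 cells, 11 members measured) Nr1h3, highest of all types here in WT, was at 84.7 [62.7 to 112] and 23.5 [14.7 to 35.6] CPM (-1.85, -2.65 to -1.10), the only member 1.5-fold lower, beside 6.62%, with none higher, beside 7.24%. Npc2 was at 495 and 399.8 CPM (-0.31, -0.53 to -0.080). The 8 neutrophil markers summed to 11379 and 3135 CPM in these cells, and their part in both values was not tested.

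In plasmacytoid DCs (156 and 167 cells, 24 members measured) Idi1 was at 70.3 and 105 CPM (log2 ratio 0.58, 0.17 to 1.01), Fdps at 199.6 and 267 CPM (0.42, 0.17 to 0.67), Cyp51 at 41.2 and 63.7 CPM (0.63, 0.084 to 1.19) and Msmo1 at 76.8 and 107 CPM (0.48, 0.073 to 0.89). Insig1, the SREBP target that restrains SCAP, was higher as well (36.5 [26 to 49.96] and 59.9 [47.4 to 74.6] CPM; 0.71, 0.14 to 1.3), and Fdft1, which commits farnesyl units to sterol, was lower (42.2 [30.8 to 56.4] and 25 [17.2 to 35.1] CPM; -0.75, -1.45 to -0.073). Cyp51 and Insig1 were 1.5-fold higher, beside 4.71% of genes, and Fdft1 as much lower, beside 4.68%.

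In cDC2 (69 and 105 cells, with median depths of 7348 and 10966 UMIs, 14 members measured) enzymes again led: Msmo1 at 47.7 [31.4 to 69.4] and 86.2 [70.5 to 104] CPM (0.85, 0.23 to 1.52), Cyp51 at 51.3 and 80.4 CPM (0.65, 0.039 to 1.3) and Fdps at 103 and 149 CPM (0.53, 0.10 to 0.99). Cyp51, Msmo1 and Insig1 were 1.5-fold higher, beside 4.88% of genes, and none lower, beside 7.59%. With a stricter marker gate, which left 38 and 74 cells, the cDC2 synthesis ratio was -0.0041 instead of 0.28. In cDC1 (108 and 65 cells, 13 members measured) Fdps was lower (249.5 and 192 CPM; -0.38, -0.66 to -0.11), Mylip higher (16 [9.64 to 25] and 39.6 [27.9 to 54.6] CPM; 1.31, 0.47 to 2.19) and Npc2 lower (943 and 815 CPM; -0.21, -0.35 to -0.076). Mylip and Lipa were 1.5-fold higher, beside 4.74% of genes, and none lower, beside 4.61%. Fdps therefore had opposite signs in cDC1 and in the other DCs, a difference that was not tested. In cDC1 the 8 microglia markers summed to 46.4 and 98.6 CPM and the 8 inflammatory macrophage markers to 41.3 and 83.6 CPM. The 8 classical monocyte markers went the other way, at 2149 and 1484 CPM. Their part in the Mylip value and the efflux sum of cDC1 was not tested.

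Neutrophils (642 and 995 cells, 22 members measured) had the lowest depth of the compared types, with a median of 2764 and 3221 UMIs, and their genes as a whole lay at a median log2 ratio of -0.20, with a TMM (trimmed mean of M-values) scaling shift of -0.26. Relative to it, Npc2 (408 and 236 CPM; -0.79, -0.90 to -0.67) and Abcg1 (89 and 54.5 CPM; -0.71, -0.96 to -0.46) stood lower, whereas Abca1 (-0.36, -0.59 to -0.13), Mylip (-0.47, -0.73 to -0.22), Npc1 (-0.49, -0.90 to -0.067) and Lipa (-0.55, -0.89 to -0.21) lay closer to it. Abca1, Npc1 and Lipa were above 0 when cells were thinned to 2500 UMIs, and Msmo1 (0.50, 0.12 to 0.89 at full depth) was below. Thinning kept only the deeper neutrophils, 345 of 642 and 669 of 995, so the thinned values describe other cells as well as another depth. Some enzymes stood above this shift at full depth. Sc5d, the sterol desaturase, was at 11.4 [7.79 to 16.1] and 24.8 [20.6 to 29.5] CPM (1.12, 0.55 to 1.73). Sc5d and Cyp51 were 1.5-fold higher, beside 1.85% of genes, and Abcg1 and Npc2 as much lower, beside 18%.

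Progenitors were the type in which the most members stood 1.5-fold higher in the Stat4fl/flCD11cCre library. Granulocyte-monocyte progenitors (70 and 139 cells, 25 members measured) had 6 members 1.5-fold higher (Mvd, Cyp51, Msmo1, Stard4, Abcg1 and Npc1), beside 4.94% of genes, and none lower, beside 4.17%. The intervals of Mvd, Stard4 and Abcg1 included 0, and no efflux member had an interval above 0. Cyp51 was at 8.58 [4.57 to 14.7] and 21.7 [17.3 to 26.8] CPM (1.34, 0.48 to 2.30), Msmo1 at 11.9 and 21.7 CPM (0.87, 0.12 to 1.69) and Npc1 at 5.94 and 13.7 CPM (1.20, 0.17 to 2.41). Npc2 was at 559.6 and 639.6 CPM (0.19, 0.080 to 0.31), the 1 type of 12 with its interval above 0.

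T cells (2352 and 1069 cells, 31 members measured) had no member 1.5-fold higher, beside 2.2% of genes, or lower, beside 5.18%. Sc5d (21.1 and 28.1 CPM; 0.41, 0.16 to 0.66), Cyp51 (20.3 and 26.9 CPM; 0.40, 0.15 to 0.65), Lipa (0.31, 0.084 to 0.54) and Ebp (0.17, 0.048 to 0.29) were higher, and Npc2 (-0.13, -0.19 to -0.063) was lower.

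In NK cells (288 and 222 cells, 16 members measured) Srebf2 was at 22.9 [15.9 to 31.8] and 40.1 [30.6 to 51.8] CPM (0.81, 0.18 to 1.46) and Abca1 at 40.6 [31.1 to 52] and 15.6 [9.92 to 23.5] CPM (-1.37, -2.13 to -0.66). Npc2 was at 312 and 267 CPM (-0.22, -0.42 to -0.027). Hmgcs1 and Srebf2 were 1.5-fold higher, beside 4.1% of genes, and Abca1 as much lower, beside 4.03%. Apoe, a lipoprotein gene of macrophages and microglia, was at 468 and 40.1 CPM in NK cells and 515 and 242 CPM in T cells, lower in the same library as Abca1, and the part of RNA from other cells in the NK value was not tested.

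Choroid plexus epithelium had the fewest measured members. There (135 and 83 cells, 10 members measured) Abca1 was at 44.5 [32.6 to 59.4] and 20.9 [11.7 to 34.5] CPM (-1.09, -2.04 to -0.22), Soat1 at 42.6 [30.9 to 57.2] and 18.1 [9.65 to 31] CPM (-1.23, -2.25 to -0.31) and Npc2 at 448 and 365 CPM (-0.30, -0.52 to -0.074). Abca1 and Soat1 were 1.5-fold lower, beside 10.9% of genes, and none higher, beside 2.18%. The 8 neutrophil markers summed to 416 and 111 CPM there, the 8 microglia markers to 202 and 98.9 CPM and the 8 inflammatory macrophage markers to 54.2 and 6.97 CPM, and their part in these values was not tested. The efflux sum, which Abca1 is part of, had a ratio of 0.38 in thinned cells.

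Dividing cells need sterol for new membrane, and microglia and T cells held enough cycling cells to compare them with the other cells of their type: 140 and 88 in microglia, and 214 and 87 in T cells. Cycling was called from 3 or more of 10 proliferation genes in cells thinned to 2500 UMIs. In both types and both libraries the synthesis sum was higher and the efflux sum lower in cycling cells. In microglia the log2 ratio of cycling over other cells was, for synthesis, 0.43, 0.29 to 0.56 (WT) and 0.32, 0.18 to 0.46 (Stat4fl/flCD11cCre), and -0.63, -0.74 to -0.52 and -0.72, -0.82 to -0.61 for efflux. In T cells it was 0.43, 0.34 to 0.53 and 0.50, 0.37 to 0.62 for synthesis, and -0.57, -0.78 to -0.37 and -0.81, -1.13 to -0.50 for efflux. The depth and the MHC class II RNA of cycling and other cells were not compared, and their part in these ratios was not tested.

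In microglia 8 of 34 members were 1.5-fold higher in cycling cells in both libraries (Acat2, Fdps, Sqle, Cyp51, Tm7sf2, Hsd17b7, Stard4 and Ch25h), beside 7.16% of genes, and 3 lower (Abca1, Abcg1 and Nr1h3), beside 5.08%. The intervals of Tm7sf2, Hsd17b7 and Nr1h3 included 0 in both libraries, and that of Sqle did in WT (1.09, -0.29 to 2.23). Fdps was at 39.1 against 21.3 CPM in WT and 31.2 against 19.4 CPM in Stat4fl/flCD11cCre, and Abca1 at 163 against 294 CPM and 184 against 356 CPM. Ch25h was at 24.4 against 13.6 CPM and 58.5 against 6.98 CPM. In T cells 4 of 29 members were higher (Pmvk, Fdps, Fdft1 and Sqle), beside 8.82% of genes, and 4 lower (Abca1, Abcg1, Mylip and Lipa), beside 8.85%. Fdps was at 58.6 against 38.3 CPM in WT and 83.3 against 37.9 CPM in Stat4fl/flCD11cCre. Fdps was thus higher, and Abca1 and Abcg1 lower, in cycling cells of both types, with intervals that exclude 0 in both libraries. Sqle was higher as well, apart from its interval across 0 in WT microglia.

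Lists of 37 other lipid genes, in 5 groups, were read beside the members in microglia. Their ratios are over all gated microglia, whose make-up differed between the libraries. These genes were not compared within the MHC class II classes, and the part of the make-up in their ratios was not tested. Of 4 lipoprotein genes, 3 were 1.5-fold lower in Stat4fl/flCD11cCre microglia, beside the 9.3% of all genes above: Apoe, the main lipoprotein gene of the CNS, was at 6794 and 4407 CPM (log2 ratio -0.62, -0.63 to -0.61), and Apoc1 (-1.87, -2.07 to -1.67) and Apoc4 (-0.90, -1.35 to -0.46) were lower too. Of 7 measured genes of lipoprotein and scavenger uptake, 3 were lower: Lpl, the lipoprotein lipase (-0.65, -0.80 to -0.50), Cd36, a fatty acid and oxidised lipoprotein receptor (49 and 14.1 CPM; -1.80, -1.95 to -1.66), and Olr1 (-0.77, -0.95 to -0.59). Apoe is an LXR target in macrophages, and its ratio was opposite in sign to those of Abca1 and Mylip in these microglia. In inflammatory macrophages Apoe was at 24745 and 27050.4 CPM (0.13, 0.12 to 0.14). It was also higher in nonclassical monocytes (0.19, 0.099 to 0.28), and lower in other types, among them neutrophils, T cells and NK cells, as given above. Of 6 measured fatty acid genes under SREBP control, Scd2, a desaturase, was 1.5-fold higher in microglia (0.75, 0.59 to 0.92) and none was lower. None of 4 LXR partners and other targets and none of 12 sterol transport genes passed 1.5-fold in microglia. Among the LXR targets Lpcat3, which remodels phospholipids, stood highest (0.55, 0.48 to 0.63).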

How the data were processed

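Single-cell RNA of 1 WT and 1 Stat4fl/flCD11cCre library was analysed. What the authors deposited are raw UMI counts for every gene and barcode, from Cell Ranger 7.0.0 per the file headers. Further names in the submitters' processing notes are STAR, bcl2fastq, R 4.3.0, Seurat and the genome build mm10, with no role stated. Annotation release, intron setting and doublet removal were not given in the sources used here. Tags of 5 antibodies, held in the same matrices, were left out of gene totals. The 13820 WT and 12534 Stat4fl/flCD11cCre barcodes hold 122975017 and 120221740 gene UMIs.

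Barcodes with at least 500 genes, at least 1000 gene UMIs and under 10% mitochondrial UMIs were kept. A cell was assigned to a type when 50% or more of that type's marker genes had a UMI (3 or more markers for inflammatory macrophages) and this share was at least 25 percentage points above that of every other list, apart from related pairs of lists. These thresholds were set after marker detection had been seen. Cells of no gate, 3737 in WT and 2236 in Stat4fl/flCD11cCre, were not described. Cells stayed in whatever their doublet score, and Scrublet (scanpy 1.11.5) was used in an alternative that removes the top 10%. Counts were summed per type and library and divided by the type's gene UMIs to give CPM. A ratio of libraries has an exact conditional binomial 95% interval (scipy 1.17.1), tested on simulated data. With 1 library per genotype no p-value was computed. Levels are given for the 13 types with at least 30 cells in each library, and genotypes are compared in the 12 with at least 50. A member was measured in a type when it had at least 50 UMIs in both libraries together. Named in full per type were up to 8 measured members whose interval excludes 0, by the bound nearest 0. The share of all genes past 1.5-fold by the same rule is given beside each count of members.

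Members, roles and lists were chosen with earlier results of these data known. Start windows are from RefSeq (GRCm38.p6), and overlapping genes from GENCODE vM21. The alternatives were a stricter gate, doublet removal, a stricter filter (1000 genes, 2000 UMIs, 5% mitochondrial), totals without mitochondrial and ribosomal protein genes, TMM scaling, thinning to 2500 UMIs, 5 or more MHC class II UMIs and 2 or more proliferation genes. Thinning leaves out cells under 2500 UMIs, 1297 in WT and 767 in Stat4fl/flCD11cCre.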

Additional observations from a re-analysis of the deposited data

Results flagged for a closer look

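The direction of the genotype difference was not the same in every cell type, and whether the types differ was not tested. The synthesis sum had a log2 ratio (Stat4fl/flCD11cCre over WT) of 0.20 in classical monocytes, 0.25 in neutrophils, 0.18 in granulocyte-monocyte progenitors, 0.28 in cDC2, 0.24 in plasmacytoid DCs and 0.14 in T cells. In nonclassical monocytes it was -0.49. The efflux sum had a ratio of 0.30 in microglia, 0.17 in inflammatory macrophages, 0.41 in progenitors and 0.47 in cDC1. It was -0.32 in classical monocytes, -0.45 in neutrophils, -0.29 in NK cells and -0.58 in choroid plexus epithelium. With cells of at least 2500 UMIs thinned to that number, the efflux ratio was 0.38 in choroid plexus epithelium and -0.019 in NK cells. With the stricter gate the cDC2 synthesis ratio was -0.0041. Each group is 1 library, so the library and the genotype cannot be told apart in any of these values.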

How the results depend on the processing

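The genotype ratios of the sums, over 12 types and both roles, were recomputed under each alternative. With thinning to 2500 UMIs the synthesis ratio was -0.050 in microglia, 0.11 in neutrophils and 0.34 in progenitors. The thinned efflux ratio was 0.24 in microglia, -0.24 in classical monocytes, 0.16 in nonclassical monocytes, -0.25 in neutrophils, -0.019 in NK cells and, reversed, 0.38 in choroid plexus epithelium. Under TMM scaling synthesis was 0.26 in classical monocytes and 0.51 in neutrophils, and efflux 0.27 in microglia and -0.19 in neutrophils. With totals free of mitochondrial and ribosomal protein genes microglia had -0.044 for synthesis and 0.25 for efflux. The stricter gate turned cDC2 synthesis to -0.0041, with 38 WT and 74 Stat4fl/flCD11cCre cells. Removing the top 10% by doublet score gave efflux ratios of -0.52 in plasmacytoid DCs and 0.16 in T cells, and the stricter cell filter gave -1.09 in choroid plexus epithelium. The cause was not tested for any of these. The other ratios of sums moved by less than their counting interval.

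Among single members, 4 in neutrophils reversed on thinning: Lipa 0.088, Abca1 0.084, Msmo1 -0.059 and Npc1 0.19. Of the other member ratios named in full, 14 moved beyond their counting interval on thinning and 40 did not. Under TMM scaling 5 moved, after doublet removal 3, with totals free of mitochondrial and ribosomal protein genes 3, and with the stricter filter 1. Without Ebp and Abca1, left out in every type, the balance of synthesis over efflux was -1.29 in WT and -1.64 in Stat4fl/flCD11cCre microglia, and 2.97 in Stat4fl/flCD11cCre plasmacytoid DCs. In inflammatory macrophages it turned to 0.28 in WT and 0.54 in Stat4fl/flCD11cCre. Counting MHC class II UMIs in thinned cells, an alternative chosen after seeing the data, gave efflux ratios of cells with over cells without of -0.29 in WT and -0.41 in Stat4fl/flCD11cCre.

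No paired analysis was possible because each genotype has 1 library and no test was made. Depth limits the members with few counts: Lss and Tm7sf2 were measured in 2 types, Ch25h in 1. The ungated cells were deeper, with a median of 9984 and 12817.5 UMIs.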
